A study of Mus musculus with 6 samples.

Results

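The genes described here encode the machinery that copies DNA in S phase. The list holds 39 genes: the MCM2-7 helicase, the origin licensing factors, the proteins that activate the helicase, the polymerases and primase, the sliding clamp and its loader, the single-strand binding protein RPA, the enzymes that join Okazaki fragments or supply deoxynucleotides, Uhrf1 and the E cyclins. A gene was a member if the accession of a non-control probe mapped to it, and the brightest probe stood for the gene. Of the 39 genes, 37 were tested among 21064 genes and unmatched transcripts, while Rpa1 and Rrm2 had no matched probe. Liver RNA was measured on 6 one-colour arrays, 3 from mice with small Maf-deficient livers (liver-specific sMaf CKO) and 3 from wild-type controls. All mice were 5 weeks old and shared a mixed background of the strains 129Sv/J, C57BL/6J and ICR. The submitters call the RNA samples of a genotype independent, and the labels name neither the small Maf genes deleted, nor what drives the deletion, nor the sex of the mice. The small Maf proteins are bZIP transcription factors that bind DNA as dimers with CNC and Bach factors such as NRF1 and NRF2.

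DNA replication is prepared in G1, when ORC, CDC6 and CDT1 load the MCM2-7 helicase onto origins, a step called licensing. In S phase CDC45 and the GINS complex join the helicase, MCM10 helps to activate it, and primase, the polymerases, the clamp PCNA and its loader RFC then copy the strands. Most of these genes are transcribed at the G1/S boundary under E2F factors, which the RB proteins restrain. In adult liver most hepatocytes are quiescent, whereas at a few weeks of age the organ is still growing. In RNA from whole tissue, fewer cells of a type and less RNA per cell cannot be told apart.

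Levels are given as log2 of the processed spot signal minus that of its array's 75th percentile, so that 0 is the percentile itself and 1 unit is a doubling. That percentile was 484.4 to 960.5 on sMaf CKO arrays and 483.4 to 609.3 on control arrays, and the number of arrays limits the precision. Of the 37 members, 33 were well above background on all 6 arrays. Slide 1 carried replicates 1 and 2 of each genotype and slide 2 carried replicate 3 of each, so that a value within slide 2 compares 1 array with 1. Among the small Maf genes, Mafg had log2 levels of -2.97, -4.36 and -0.76 on sMaf CKO arrays 1, 2 and 3, against 1.88, 1.87 and 2.23 on the control arrays. The levels of Mafg did not overlap, with a difference of -4.69 (SE 0.79; limma, Benjamini-Hochberg adjusted p = 0.0533), and sMaf CKO array 3 kept the most signal. Maff and Mafk overlapped between the genotypes, with differences of 0.15 and 0.21 (limma adjusted p = 0.911 and 0.760). The labels do not say whether these probes lie in a deleted part of a gene, so the levels do not settle which genes were deleted. Of the hepatocyte markers Alb, Apoa1, Ttr, Tat and Hnf4a, 0 of 5 passed the test. All 5 differences were negative, from -0.61 to -0.41 (median -0.45), and Apoa1 was lower in sMaf CKO liver without overlap. The summed level of the 5 markers was 736 to 1232 times the 75th percentile on sMaf CKO arrays and 1137 to 1411 times on control arrays.

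RefSeq promoter windows, 250 bases before to 50 bases after each start site on GRCm38.p6, were found for 31 of the 39 genes. A gene with several windows was counted as holding letters if any of its windows held them. Letters read by E2F factors (TTTCCCGC, TTTGGCGC, TTTCGCGC or TTTGCCGC on either strand, overlaps allowed) occurred in 13 of these 31 genes (41.9%), against 2.6% of the 27025 genes in the table. The CCAAT letters occurred in 20 (64.5%, against 41.1% of all genes). The core of the antioxidant response element, TGACNNNGC, which dimers of CNC and small Maf proteins bind, occurred in 6 (19.4%, against 14.0% of all genes). The 170 bases that end just before the start site are printed for 5 members with E2F letters in that stretch, 3 from the helicase and 2 from licensing, because these are the steps that open S phase. They are followed by Mcm10 and Tk1, whose windows held no E2F letters and whose mean levels were lower in sMaf CKO liver. All 13 tested members with E2F letters had positive differences, as had 11 of the 16 tested members whose windows lacked them, Mcm2, Prim1, Rrm1 and Fen1 among them. Of those with E2F letters, Orc1, Pola1 and Rfc3 fell to -0.07, -0.08 and -0.24 when an array was left out. No window was found for Gins4, Prim2, Rfc2 and Ccne2, with negative differences, or for Mcm4, Gins1, Gins2 and Pole, with positive ones. Whether sign goes with the letters was not tested. Sequences run 5′ to 3′ on the strand of the gene, and capitals mark the E2F letters, merged where matches overlap. A match is a description of the letters, and no match says only that these letters are not in the window.
Mcm5: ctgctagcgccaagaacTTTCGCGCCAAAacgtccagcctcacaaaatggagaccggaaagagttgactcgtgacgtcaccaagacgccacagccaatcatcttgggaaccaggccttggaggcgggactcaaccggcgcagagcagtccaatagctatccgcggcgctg
Mcm6: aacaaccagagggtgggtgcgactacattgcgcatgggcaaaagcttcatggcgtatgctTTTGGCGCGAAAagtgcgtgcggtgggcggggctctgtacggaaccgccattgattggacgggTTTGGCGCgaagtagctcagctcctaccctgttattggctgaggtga
Mcm7: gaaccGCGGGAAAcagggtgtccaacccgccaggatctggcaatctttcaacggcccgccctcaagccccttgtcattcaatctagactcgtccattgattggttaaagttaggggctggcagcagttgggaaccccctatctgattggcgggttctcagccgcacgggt
Cdc6: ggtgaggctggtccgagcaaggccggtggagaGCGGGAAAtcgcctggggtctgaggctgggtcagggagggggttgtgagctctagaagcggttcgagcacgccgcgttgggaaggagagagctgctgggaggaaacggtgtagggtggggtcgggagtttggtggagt
Orc1: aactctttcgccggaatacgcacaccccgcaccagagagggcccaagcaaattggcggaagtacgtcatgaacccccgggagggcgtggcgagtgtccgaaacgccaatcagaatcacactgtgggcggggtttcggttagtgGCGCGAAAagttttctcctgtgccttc
Mcm10: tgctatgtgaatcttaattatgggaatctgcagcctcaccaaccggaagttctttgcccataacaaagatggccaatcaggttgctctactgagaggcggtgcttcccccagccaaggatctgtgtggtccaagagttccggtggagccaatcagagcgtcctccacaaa
Tk1: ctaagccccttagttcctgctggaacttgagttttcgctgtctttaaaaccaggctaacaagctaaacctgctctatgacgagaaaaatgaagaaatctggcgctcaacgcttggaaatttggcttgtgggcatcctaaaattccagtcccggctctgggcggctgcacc
The stretches lie at chr8:75109339-75109508 on the plus strand for Mcm5, chr1:128359706-128359875 on the minus strand for Mcm6 and chr5:138171884-138172053 on the minus strand for Mcm7. Those of the licensing genes lie at chr11:98907981-98908150 for Cdc6 and chr4:108579284-108579453 for Orc1, both on the plus strand. Mcm10 and Tk1 lie on the minus strand, at chr2:5012792-5012961 and chr11:117826015-117826184. Mcm6 held 3 matches, 2 of which overlap and form the first run of capitals, and Mcm5 held an overlapping pair. Mcm7 had another window, not printed, that held no E2F letters.

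No member passed the test between sMaf CKO and control liver. In the limma fit over all 21064 features, 0 of 37 members had a Benjamini-Hochberg adjusted p under 0.05, where 0.541% of all features did (0.385% higher and 0.157% lower). The smallest adjusted p of a member was 0.0997, for Mcm10. At an unadjusted p under 0.05, the members Mcm7, Uhrf1 and Mcm5 were higher (8.11% of members, against 8.72% of all features) and Mcm10 was lower (2.70%, against 8.1%). In sign the list leaned to sMaf CKO, with 28 of 37 differences positive (75.7%, against 45.3% of all features), and the median difference was 0.29 for the members and -0.05 for all features. Taken within slide 1 that median was 0.21 and taken within slide 2 it was 0.49. Positive differences in both slides were seen for 25 members, a count with no share over all features to set beside it. Slide 2 rests on control array 3, the lowest control for 24 members. Array by array, 3 members had every sMaf CKO level above every control level (8.11%, against 11.4% of all features) and 2 had every one below (5.41%, against 11.6%). The 95% interval of the difference held 0 for 33 members, and for 19 members it reached a difference of at least 1, a doubling, in one direction or the other. The chart of differences shows these intervals.

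**Figure D1:**
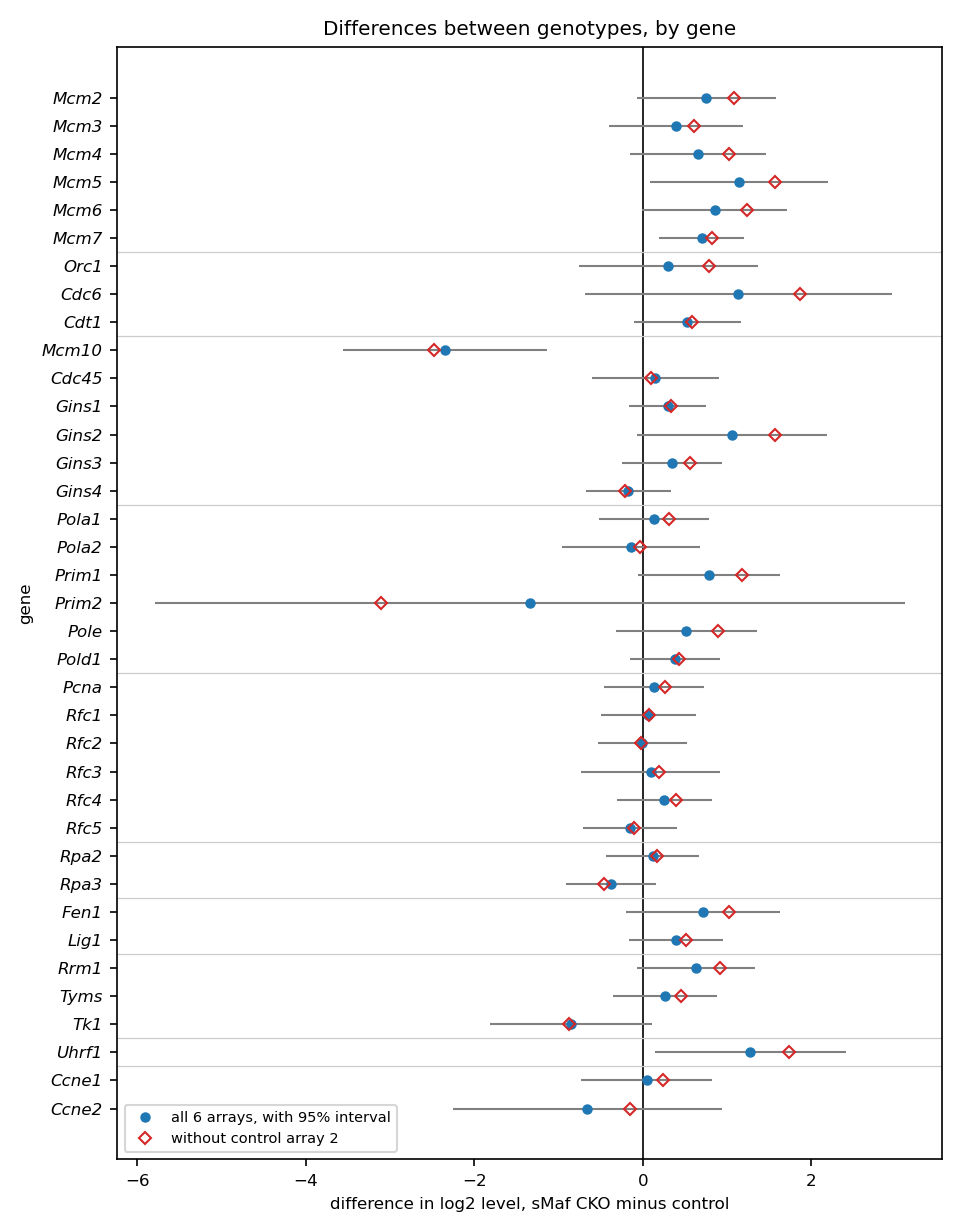
Differences in log2 level, sMaf CKO minus control, for the 37 members tested (filled circles, with 95% intervals from the limma fit over 6 arrays) and the same without control array 2 (open diamonds). The intervals of 33 members cross 0, and the diamonds of the MCM2-7 genes lie right of the circles.

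The arrays of a genotype were spread on these genes, with control array 2 mostly high and control array 3 mostly low. Control array 2 was the highest of the 3 controls for 24 members (64.9%, against 30.1% of all features) and above the mean of control arrays 1 and 3 for 30 (81.1%, against 47.1%). For 21 members it was both the highest control and at or above the lowest sMaf CKO array (56.8%, against 25.3%). Control array 3 was the lowest control for 24 members (64.9%, against 30.4%), and sMaf CKO array 2 the highest of its genotype for 27 (73.0%, against 24.6%). The median member level, taken from the mean of the 3 controls, was 0.19, 0.55 and 0.24 on sMaf CKO arrays 1, 2 and 3, against 0.02, 0.29 and -0.28 on control arrays 1, 2 and 3. Control array 2 thus lay among the sMaf CKO arrays and control array 3 lowest of the 6. The same medians over all features lay between -0.07 and 0.04 on every array. Every sMaf CKO array was above both control arrays 1 and 3 for 17 members (45.9%, against 16.5% of all features). Control array 2, high on these genes, was set aside for that count and for the next fit. That choice by itself raises the share of members that are higher. Against all 3 control arrays the count was 3 members (8.11%, against 11.4%). With control array 2 left out, limma again called 0 members (0.831% of all features), with a smallest adjusted p of 0.123, while 12 members were higher at an unadjusted p under 0.05 (32.4%, against 8.72%) and 1 was lower (2.70%, against 7.86%). The median difference was then 0.43. With control array 3 left out instead, the values moved the other way. Control array 3 was the only control on slide 2, so this fit sets sMaf CKO array 3 against controls of slide 1 alone. Limma called 0 members (0.104% of all features), with a smallest adjusted p of 0.228, and 23 members had positive differences (62.2%, against 45.9%). At an unadjusted p under 0.05, 0 members were higher (against 5.99% of all features) and Mcm10 was lower (2.70%, against 5.33%), and the median difference was 0.19. With slide as a block, 0 members were called (1.61% of all features).

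**Figure D2:**
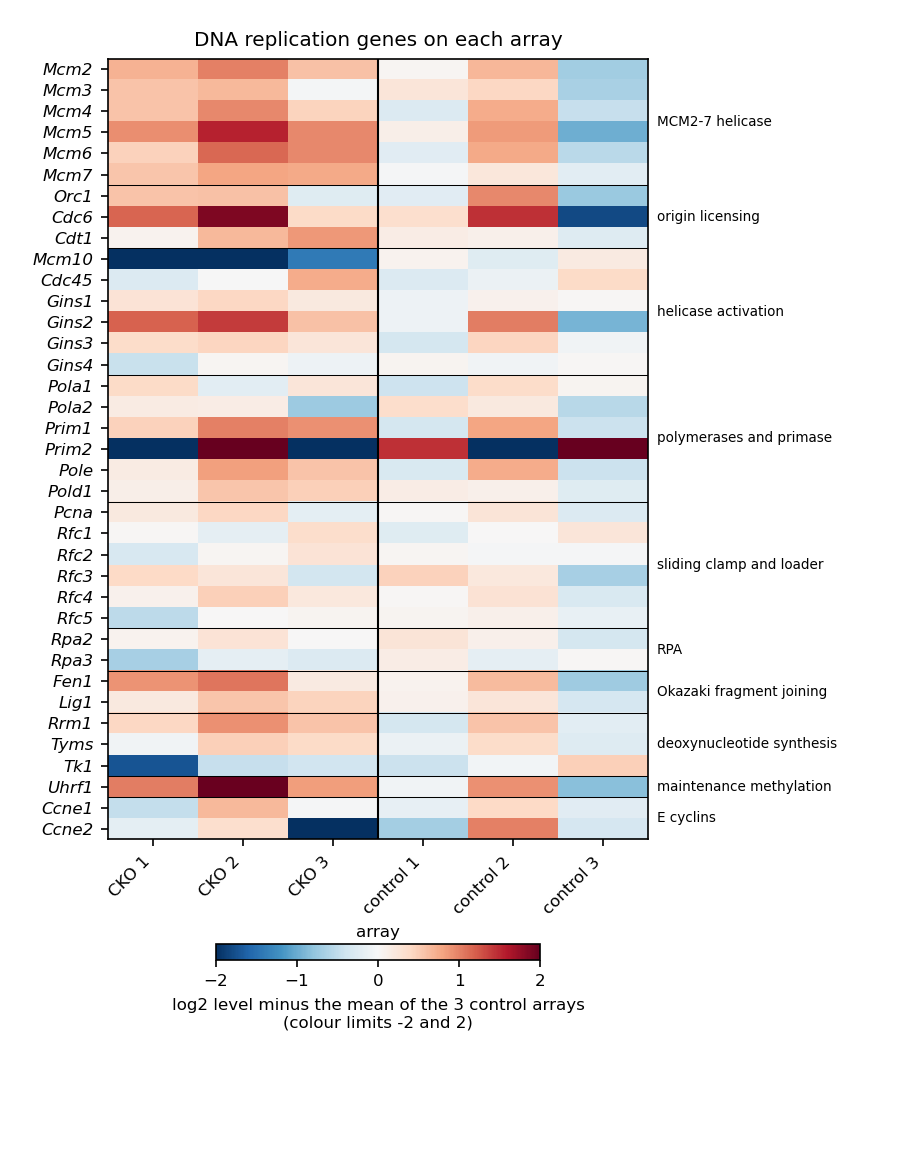
Log2 level of each member on each array minus the mean of the 3 control arrays, as colour from -2 to 2, with sMaf CKO arrays left of the line and control arrays right of it, and members grouped by role. Control array 2 is red for the MCM2-7 genes, as are the 3 sMaf CKO arrays apart from Mcm3 on sMaf CKO array 3, and control array 3 is blue.

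The MCM2-7 genes encode the 6 subunits of the ring that unwinds DNA at the fork, and all 6 had positive differences, with a median of 0.73 (0.54 within slide 1 and 1.12 within slide 2). None passed the test. Mcm7 had log2 levels of 2.41, 2.65 and 2.62 on the sMaf CKO arrays and 1.83, 2.09 and 1.66 on the control arrays. The groups did not overlap, and the difference was 0.70 (SE 0.22, 95% interval 0.20 to 1.21, limma adjusted p = 0.185). Of the 6 helicase genes it was the least raised on control array 2, by 0.35 over the mean of the other controls. Mcm5 had log2 levels of 0.63, 1.24 and 0.65 on the sMaf CKO arrays and -0.19, 0.55 and -1.27 on the control arrays. They did not overlap either, but control array 2 came within 0.1 of the lowest sMaf CKO level. The difference of Mcm5 was 1.14 (SE 0.45, 95% interval 0.09 to 2.19, adjusted p = 0.267), with 0.75 within slide 1 and 1.92 within slide 2.

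In the other helicase subunits control array 2 overlapped the sMaf CKO arrays. Mcm6 had log2 levels of 3.54, 4.23 and 4.04 in sMaf CKO liver and 2.86, 3.84 and 2.55 in control liver (difference 0.85, SE 0.37, limma adjusted p = 0.301). Mcm2 had -0.70, -0.39 and -0.81 in sMaf CKO liver and -1.35, -0.73 and -2.09 in control liver (difference 0.76, SE 0.35, limma adjusted p = 0.332). Mcm4 had 1.54, 1.93 and 1.41 in sMaf CKO liver and 0.69, 1.70 and 0.51 in control liver (difference 0.66, SE 0.35, limma adjusted p = 0.386). In all 3 genes control arrays 1 and 3 lay below every sMaf CKO array, and control array 2 lay above the lowest of them. Mcm3 differed by 0.40 (SE 0.34, adjusted p = 0.589). Control array 2 was the highest control for all 6 helicase genes. Without it their median difference was 1.06, with adjusted p from 0.134 for Mcm6 to 0.461 for Mcm3. Without control array 3 the median was 0.51, and the differences were 0.66 for Mcm5, 0.41 for Mcm2 and 0.07 for Mcm3.

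The licensing factors had positive differences but wide intervals. Cdt1, which brings the helicase to origins, had log2 levels of 1.71, 2.30 and 2.51 on the sMaf CKO arrays and 1.80, 1.75 and 1.38 on the control arrays. Only sMaf CKO array 1 lay within the control range, and the difference was 0.53 (SE 0.27, limma adjusted p = 0.376), with 0.23 within slide 1. Cdc6, the ATPase that loads the helicase with CDT1, differed by 1.14 (SE 0.78, adjusted p = 0.502) and was well above background on 2 arrays of each genotype. Its second probe gave 0.76, and its level on control array 2 was 2.20 above the mean of the other controls. Orc1, the largest subunit of the origin recognition complex, differed by 0.30 (SE 0.46, adjusted p = 0.774) and was well above background on 2 sMaf CKO arrays and 1 control array. The printed promoter stretches of Cdc6 and Orc1 each hold 1 E2F match, as does that of Mcm7.

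Among the genes that turn the loaded helicase into a moving one, Mcm10 ran opposite to the MCM2-7 genes. Mcm10 had log2 levels of 1.26, 2.86 and 3.46 on the sMaf CKO arrays and 4.94, 4.63 and 5.07 on the control arrays. All 3 sMaf CKO levels lay below all controls, and they spread over more than 2 units whereas the controls spread over less than 1. The difference was -2.35 (SE 0.52, 95% interval -3.56 to -1.14, limma adjusted p = 0.0997), a 5.10-fold lower mean, with -2.72 within slide 1 and -1.60 within slide 2. Of the settings tried, Mcm10 passed only without sMaf CKO replicate 3 (-2.82, limma adjusted p = 0.0417). Control array 2 did not stand out for this gene, at -0.37 from the mean of the other controls. One probe was matched to Mcm10, so no second probe checks it. Its mean control level of 4.88 was the highest of the 37 members, and whether the probe reads Mcm10 alone was not tested.

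Gins2, a subunit of the GINS complex, had log2 levels of -0.75, -0.53 and -1.35 on the sMaf CKO arrays and -2.03, -0.91 and -2.85 on the control arrays. Control array 2 lay inside the sMaf CKO range and the other controls below it, with a difference of 1.06 (SE 0.48, limma adjusted p = 0.322) that was 1.57 without control array 2 (adjusted p = 0.123) and 0.60 without control array 3. The other GINS subunits differed by 0.29 for Gins1, 0.35 for Gins3 and -0.17 for Gins4, with adjusted p from 0.493 to 0.730. The Gins1 levels did not overlap, but its second probe, matched to another transcript, gave 0.05. Cdc45, which links GINS and MCM2-7 in the active helicase, differed by 0.15 (SE 0.32, adjusted p = 0.849).

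Primase and polymerase genes varied in sign. Prim1, the catalytic subunit of primase, had log2 levels of 1.12, 1.67 and 1.57 on the sMaf CKO arrays and 0.32, 1.45 and 0.23 on the control arrays. The pattern was that of Mcm6, with control array 2 inside the sMaf CKO range and the other controls below it, and the difference was 0.79 (SE 0.36, limma adjusted p = 0.323; 1.18 without control array 2 and 0.57 without control array 3). Prim2, the regulatory subunit, had log2 levels of -5.81, 0.21 and -5.38 on the sMaf CKO arrays and -0.86, -5.85 and -0.25 on the control arrays. Its probe jumped by over 4 units between arrays of the same genotype, so that the difference of -1.34 (SE 1.91, 95% interval -5.79 to 3.11, adjusted p = 0.760) carries no direction. The catalytic subunits of the leading-strand polymerase epsilon and the lagging-strand polymerase delta, Pole and Pold1, differed by 0.52 and 0.38 (adjusted p = 0.503 and 0.443). Pola1 and Pola2, of the polymerase alpha that extends primers, differed by 0.13 and -0.14 (adjusted p = 0.845 and 0.872).

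The clamp and its loader stayed close to 0. Pcna, the ring that tethers polymerases to DNA, had log2 levels of 2.91, 3.13 and 2.52 on the sMaf CKO arrays and 2.75, 2.98 and 2.44 on the control arrays. The arrays of the genotypes interleaved, array 3 being the lowest and array 2 the highest of each, and the difference was 0.13 (SE 0.26, 95% interval -0.46 to 0.73, limma adjusted p = 0.823). The loader subunits differed by 0.07 for Rfc1, -0.00 for Rfc2, 0.09 for Rfc3, 0.26 for Rfc4 and -0.15 for Rfc5, with adjusted p from 0.622 to 0.997. The interval of each loader gene ended short of a difference of 1 on both sides. Of RPA, which coats unwound single strands, Rpa2 differed by 0.12 (adjusted p = 0.837) and Rpa3 by -0.37 (adjusted p = 0.449), the Rpa3 levels being lower in sMaf CKO liver without overlap. Fen1 trims the flaps of Okazaki fragments and Lig1 seals them. They differed by 0.71 and 0.39 (adjusted p = 0.402 and 0.448), and both were highest among controls on control array 2.

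Genes of deoxynucleotide supply split in sign. Rrm1, the large subunit of ribonucleotide reductase, had log2 levels of 1.39, 1.88 and 1.54 on the sMaf CKO arrays and 0.61, 1.53 and 0.76 on the control arrays. Control array 2 lay between sMaf CKO arrays 1 and 3, the other controls lower, and the difference was 0.63 (SE 0.30, limma adjusted p = 0.338). Tk1, the thymidine kinase that salvages thymidine in S phase, had log2 levels of 1.48, 2.75 and 2.83 on the sMaf CKO arrays and 2.79, 3.16 and 3.68 on the control arrays. Array 1 was the lowest in each genotype, sMaf CKO array 3 overlapped the controls, and the difference was -0.85 (SE 0.41, 95% interval -1.82 to 0.11, adjusted p = 0.350). As with Mcm10, control array 2 did not stand out for Tk1, at -0.07 from the mean of the other controls. Tyms, which makes thymidylate, differed by 0.26 (adjusted p = 0.651), with 0.22 by its second probe.

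**Figure D3:**
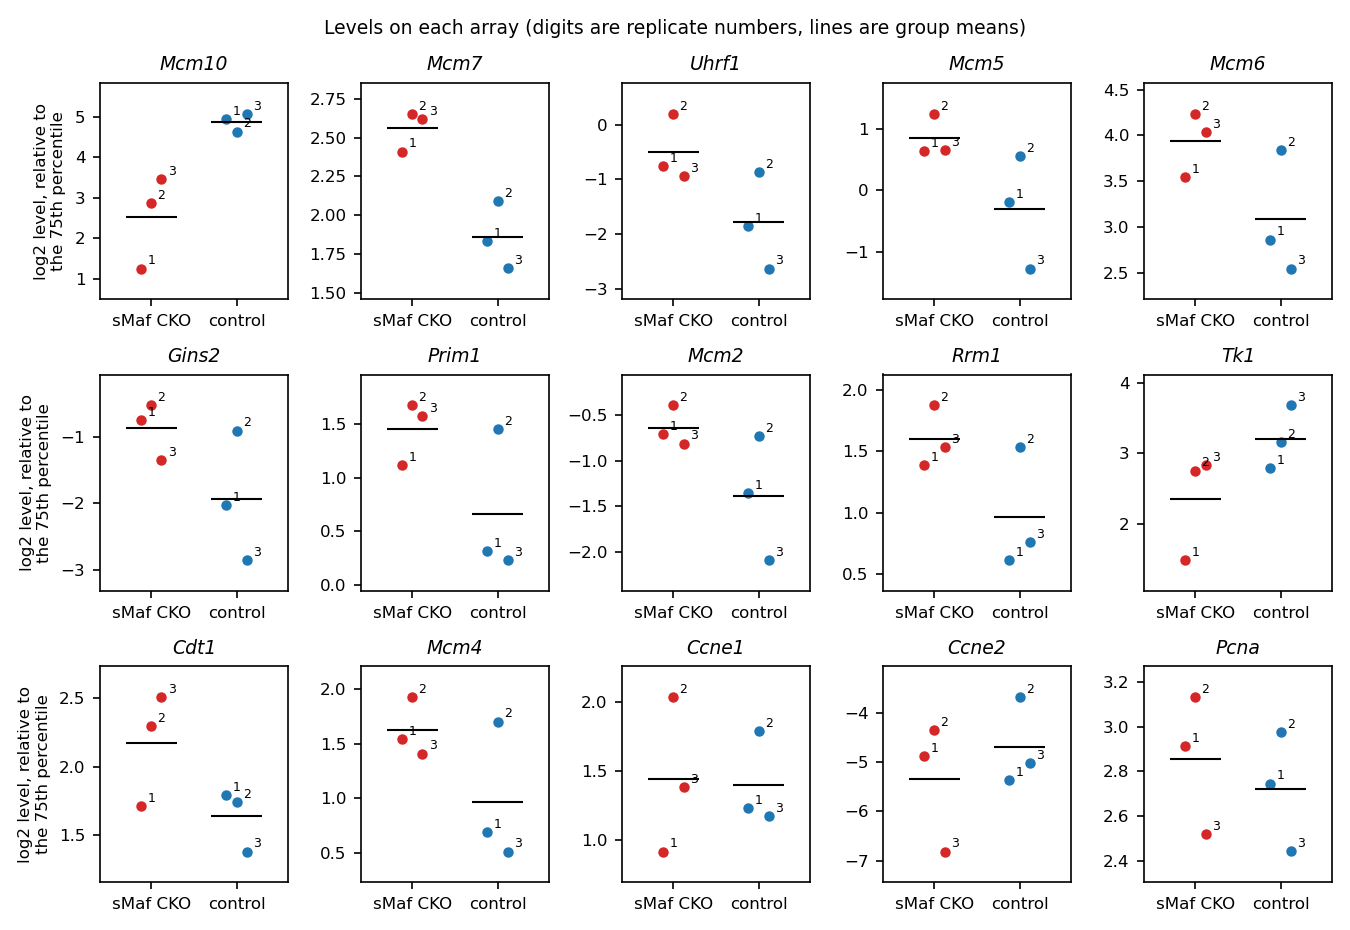
Log2 level (0 is the array's 75th percentile) for the 12 members with the smallest p and for Ccne1, Ccne2 and Pcna, with sMaf CKO arrays left and control arrays right in each panel, digits for replicates and lines for group means. Each panel has its own scale. Control array 2 is the highest control for Uhrf1, Gins2, Prim1 and Rrm1, and the Mcm10 and Tk1 means are lower in sMaf CKO liver.

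Uhrf1 brings the DNA methyltransferase DNMT1 to newly copied DNA. It had log2 levels of -0.76, 0.19 and -0.93 on the sMaf CKO arrays and -1.84, -0.87 and -2.62 on the control arrays. Control array 2 lay just above sMaf CKO array 3, and the difference was 1.28 (SE 0.48, 95% interval 0.15 to 2.41, limma adjusted p = 0.252). It was 1.08 within slide 1 and 1.69 within slide 2. The second Uhrf1 probe gave 1.12, and without control array 2 the difference was 1.73 (adjusted p = 0.129), and without control array 3 it was 0.86.

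The E cyclins activate CDK2 at the entry to S phase. Ccne1 had log2 levels of 0.91, 2.04 and 1.38 on the sMaf CKO arrays and 1.23, 1.79 and 1.17 on the control arrays. The groups overlapped throughout, with array 2 the highest of each, and the difference was 0.05 (SE 0.33, 95% interval -0.73 to 0.83, limma adjusted p = 0.958). Ccne2 had log2 levels of -4.88, -4.35 and -6.81 on the sMaf CKO arrays and -5.37, -3.68 and -5.02 on the control arrays. It was well above background on 2 arrays of each genotype, differed by -0.66 (SE 0.68, adjusted p = 0.663), and differed by 0.58 on its second probe. Of the 8 members with several kept probes, Ccne2 was the one whose probes disagreed in sign.

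Lists of other replication genes held no gene past the test. Of 14 other genes of licensing and origin firing, 0 passed the limma test (3 at an unadjusted p under 0.05, all higher), with a median difference of 0.14. The best ranked were Dbf4, the activating subunit of the CDC7 kinase (0.91, adjusted p = 0.244), and Donson, which helps to assemble the helicase (0.58, adjusted p = 0.286). Of 22 other genes of the fork, 0 passed (2 higher and 1 lower at an unadjusted p under 0.05; median 0.20), the best ranked being the polymerase delta subunit Pold2 (-1.01, adjusted p = 0.140) and Chtf18, part of an alternative clamp loader (1.11, adjusted p = 0.250). Of 14 other genes of nucleotide supply, 0 passed (2 lower at an unadjusted p under 0.05; median 0.01), and the best ranked were the serine hydroxymethyltransferases Shmt2 (-0.88, adjusted p = 0.201) and Shmt1 (-0.89, adjusted p = 0.212). Of 9 genes of chromatin assembly and maintenance, 0 passed (1 higher at an unadjusted p under 0.05; median 0.54), with Ezh2, a histone methyltransferase (0.60, adjusted p = 0.239), and Chaf1b, of the histone chaperone CAF-1 (0.54, adjusted p = 0.359), ranked best. Of 9 checkpoint genes, 0 passed (1 lower at an unadjusted p under 0.05; median 0.16). Wee1, which restrains CDK1, differed by -0.91 (adjusted p = 0.194) and Chek1, the kinase that signals stalled forks, by 1.42 (adjusted p = 0.311). Chek1 was well above background on 3 sMaf CKO arrays and 1 control array, so that its difference rests on dim control levels. Wee1 was well above background on 2 sMaf CKO arrays and 3 control arrays. Its difference rests on dim sMaf CKO levels, of -4.89 to -4.23.

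Upstream of S phase, the cell cycle inhibitor Cdkn1a was the single gene of these lists to pass. Cdkn1a, which encodes p21, an inhibitor of cyclin-CDK complexes and a p53 target, had log2 levels of 1.84, 1.19 and 1.29 on the sMaf CKO arrays and -2.78, -2.17 and -2.55 on the control arrays. It rose by 3.94 in sMaf CKO liver (SE 0.27, limma adjusted p = 0.0086), and no control array came near the sMaf CKO arrays. It was the 1 of 14 tested G1/S kinases, cyclins and inhibitors that passed, and the median of that list was 0.14. Cdkn2b, another inhibitor of that list, was higher in sMaf CKO liver without overlap but did not pass (1.33, SE 0.27, limma adjusted p = 0.083). Of 16 E2F and RB factors, 0 passed (2 higher and 3 lower at an unadjusted p under 0.05; median 0.14). E2f1, an activator of S phase genes, differed by 0.93 (SE 0.24, adjusted p = 0.136), and Rbl2, the RB relative p130 of quiescent cells, differed by -1.02 (SE 0.27, adjusted p = 0.142).

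Genes of G2 and mitosis, which follow S phase, were also high on control array 2. Of 15 such genes 0 passed, 10 were higher at an unadjusted p under 0.05, and the median difference was 1.67 (1.33 within slide 1 and 2.62 within slide 2). The median level from the control mean was 1.73, 1.86 and 1.69 on the sMaf CKO arrays, against -0.51, 1.41 and -0.96 on the control arrays. Control array 2 was the highest control for 14 of the 15. Aurka, a mitotic kinase, differed by 2.29 (adjusted p = 0.114) and Cdc20, an activator of the anaphase-promoting complex, by 2.29 (adjusted p = 0.123). Without control array 2, 10 of the 15 passed the limma test as higher (0.698% of all features), whereas 0 of the 37 replication genes did. The limma adjusted p was then 0.0167 for Aurka and 0.0137 for Cdc20. Control array 2 was high on the genes of G2 and mitosis, so leaving it out by itself raises the number that pass. Without control array 3, 0 of the 15 passed and their median difference was 1.33. Whether the 2 lists differ was not tested.

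**Figure D4:**
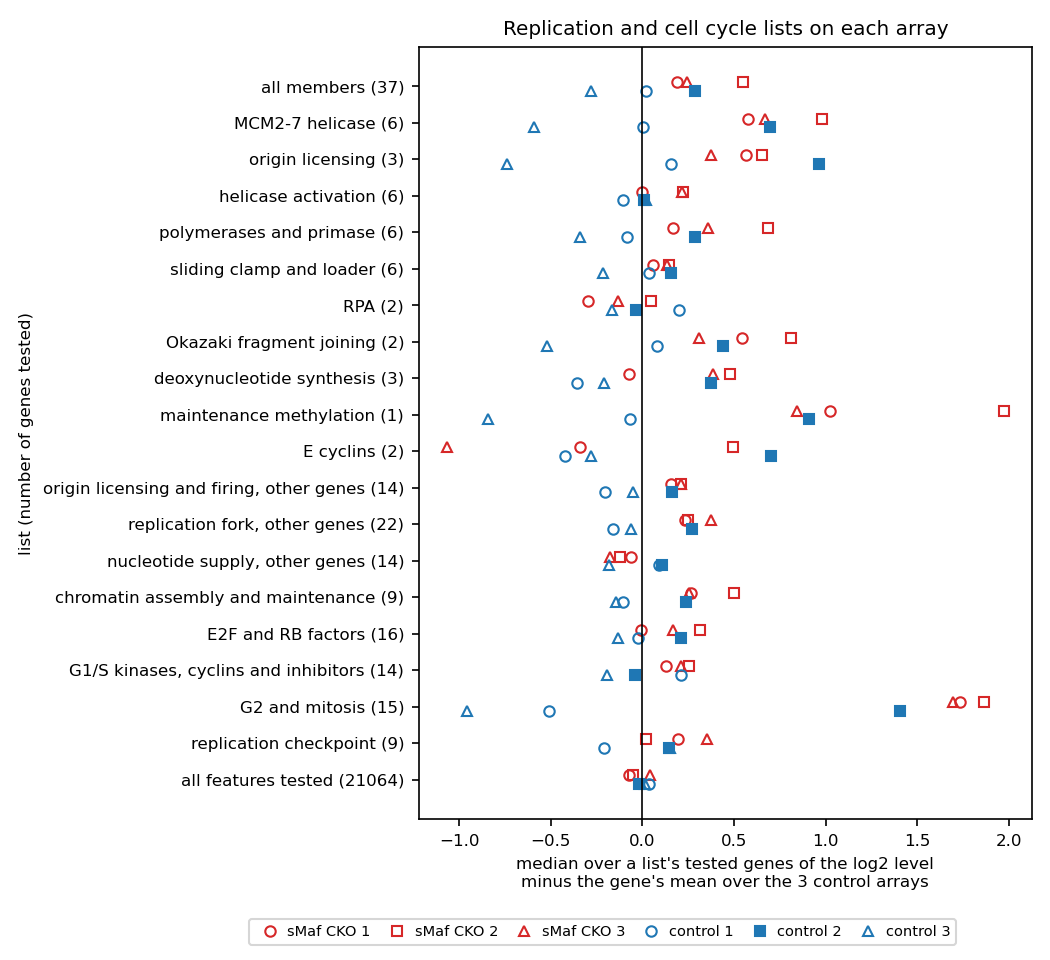
Median over the tested genes of a list of the log2 level minus the mean of the gene over the 3 control arrays, for the members, their roles, the other cell cycle lists and all features, with 1 symbol for each array. Control array 2 (filled squares) lies at 1.41 for G2 and mitosis, close to the sMaf CKO arrays, and at 0.29 for all members.

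Summed marker levels of several other cell types differed between the genotypes or were high on control array 2. The summed level of the erythroid markers, in multiples of the 75th percentile, was 187 to 339 on sMaf CKO arrays and 142 to 309 on control arrays, with 308.7 on control array 2 and 141.8 and 196.0 on control arrays 1 and 3. Of these 5 markers, 0 passed the test and 4 were highest among controls on control array 2. Hbb-bt carried most of the erythroid sum, with a difference of 0.31 (limma adjusted p = 0.693). Klf1 went the other way, lower in sMaf CKO liver without overlap (-1.56, limma adjusted p = 0.1435). In sign, 2 of the 5 differences were positive and 3 negative. The summed level of Kupffer cell markers was 177 to 402 on sMaf CKO arrays and 74.9 to 122 on control arrays (0 of 6 passed). All 6 differences were positive. Marco and Cd5l carried most of that sum on the sMaf CKO arrays, and Cd5l on the control arrays. Their differences were 3.73 and 0.88 (limma adjusted p = 0.0859 and 0.173). The summed level of stellate cell markers was 104 to 126 on sMaf CKO arrays and 68.9 to 89.8 on control arrays (0 of 5 passed). All 5 differences were positive, but Dcn carried most of that sum, with a difference of 0.43 (limma adjusted p = 0.379). Of the 6 markers of monocyte-derived macrophages, Gpnmb, not well above background on the control arrays, and Trem2 were called higher, while the summed level was 26.9 to 41.6 on sMaf CKO arrays and 30.0 to 47.3 on control arrays. Ly6c2 and Cd9 carried most of that sum, with differences of -0.85 and 0.81 (limma adjusted p = 0.289 and 0.214). Ly6c2 was the 1 marker of the 6 with a negative difference. Cholangiocyte markers summed to 11.0 to 49.8 on sMaf CKO arrays and 9.48 to 11.9 on control arrays (0 of 5 passed). Spp1 carried most of that sum, with 47.9 on sMaf CKO array 1, and the other 4 markers summed to 1.16 to 1.95 on sMaf CKO arrays and 1.15 to 1.51 on control arrays. Neutrophil markers summed to 5.93 to 8.84 on sMaf CKO arrays and 3.47 to 5.91 on control arrays (0 of 5 passed). Endothelial markers summed to 36.9 to 48.8 on sMaf CKO arrays and 42.2 to 60.6 on control arrays (0 of 5 passed). Lymphocyte markers stayed low, at 0.557 to 2.16 on sMaf CKO arrays and 0.456 to 1.25 on control arrays for T cells (0 of 5 passed). For B cells they were 0.539 to 1.12 on sMaf CKO arrays and 0.463 to 1.16 on control arrays (0 of 4 passed). The part of any of these cells in the levels of the replication genes was not tested.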

How the data were processed

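RNA of 6 livers was measured on one-colour Agilent arrays. Per the file headers, the authors extracted spot intensities with Agilent Feature Extraction 10.7.3.1, and the deposited processed intensity is background-subtracted within its array. The deposited value table holds log2 values. Set against the scanner values, it was the same quantity centred on each probe's median, with column medians of -0.10, -0.11 and 0.09 for sMaf CKO and 0.05, -0.02 and 0.08 for control. Its scale, centring and direction are thus settled.

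Log2 intensities were taken relative to each array's 75th percentile. A probe was kept if well above background on 3 or more of the 6 arrays (27865 of 41174), was named by accession through RefSeq (26690 of all probes matched), and the brightest stood for a gene. The array design is on mm9, so gene coordinates are given only for RefSeq promoters on GRCm38.p6. Control spots and outlier flags were left out. A value was missing this way for 47 tested probes. The test was limma 3.58.1 (R 4.3.3) with genotype alone in the model, with Benjamini-Hochberg adjustment over all 21064 features and a threshold of 0.05. The fit was tested on simulated data.

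The members and gene lists were chosen with earlier results of these data known. Levels on all arrays are given for the 12 members with the smallest p and for Ccne1, Ccne2 and Pcna. Those of Prim2 were added after its values were seen. From each other list come the genes past the threshold, or else the 2 with the smallest p. Other named genes were chosen after their values were seen. The alternatives were normexp background correction (offset 50, on median signals, as the files give no mean), quantile normalization, the authors' table, other filters, the mean of a gene's probes, replicate and slide blocks, each slide alone, and each array left out.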

Additional observations from a re-analysis of the deposited data

How the results depend on the processing

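Under every alternative processing but one, 0 members were called. The exception was the fit without sMaf CKO replicate 3, which called Mcm10 lower, so that leaving out an array gave 0 to 1 members called lower. The differences of all 12 best-ranked members kept their sign in every alternative. These members were ranked by p in the same data, and the blocks cannot move a difference in this balanced design. The kept signs are therefore no separate support. Among the other members the sign turned for Pola2 (0.02) and Ccne2 (0.01) under normexp. It turned for Rfc2 under quantile normalization (0.20) and in the authors' table (0.00). Within slide 1 it turned for Prim2 (0.55), Rfc3 (-0.01), Rpa2 (-0.01) and Ccne1 (-0.03), and within slide 2 for Rfc2 (0.29), Rfc5 (0.21) and, outside the members, Mafk (-0.29). Of these, Ccne2 (-0.66) and Prim2 (-1.34) did not lie near 0 in the main fit. The RPA median was 0.03 within slide 2, and the E cyclin median was 0.02 under normexp and 0.05 with probes above background on all 6 arrays. Leaving out each array gave Orc1 -0.07 to 0.78, Cdc45 -0.15 to 0.36, Pola1 -0.08 to 0.32, Pola2 -0.41 to 0.16, Pcna -0.01 to 0.30, Rfc1 -0.08 to 0.19, Rfc2 -0.14 to 0.15, Rfc3 -0.24 to 0.32, Rfc5 -0.26 to 0.04, Rpa2 -0.06 to 0.24, Ccne1 -0.25 to 0.31, Ccne2 -1.16 to 0.07, Maff -0.37 to 0.52 and Mafk -0.07 to 0.44, with medians of -0.01 to 0.13 for the clamp and loader and -0.70 to 0.08 for the E cyclins. The cause was not tested. Mafg passed the threshold under normexp (-3.78), with probes above background on all 6 arrays (-4.69), with the slide block (-4.69), within slide 1 (-5.55) and without sMaf CKO replicate 3 (-5.66). It ranged from -5.66 to -3.86 over the fits that left out an array, and the others of these did not pass. With the replicate number as a block, 290 features were called against 114 without it, still 0 members, and Mafg passed at -4.69. Between same-numbered arrays, deviations from group means correlated at 0.06, 0.17 and 0.42, and the design gives no pairing, so the numbers were not taken as pairs. The count over all features was 74 under normexp, 22 under quantile normalization, 269 with probes above background on all 6 arrays, 1 with no filter, 340 with the slide block and 194 within slide 1. Within slide 2, 1 array against 1 leaves no test. Leaving out sMaf CKO arrays 1, 2 and 3 gave 3, 11 and 294, and leaving out control arrays 1, 2 and 3 gave 6, 175 and 22. With no filter Cdkn1a was not called, and with probes above background on all 6 arrays 2 genes of its list were. The G2 and mitosis count was 1 with the replicate block, and Chek1, dim on the controls, was called without control replicate 2. With 3 arrays a group, the median SE of a member was 0.33, and members dim on some arrays (Orc1, Cdc6, Prim2, Ccne2) are the least certain.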
